A study of Mus musculus with 6 samples.

Results

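The 36 genes described here code for the amino acid response factor ATF4, its relatives and targets, and for proteins that import amino acids, make them or load them onto tRNA. They were chosen by name, from the known biology of this pathway, out of the 17369 genes in the expression table. The choice was made with earlier results of these data known. There were 9 factors and stress targets, 7 genes of amino acid and folate-linked synthesis, 7 transporters, and 13 genes of tRNA loading and export. They were read in 27258 single mouse T cells. Per the labels, the cultures of both genotypes began from naive CD4 T cells of the spleen and lasted 48 h. They held IL-4 at 20 ng/ml, anti-IFN-gamma at 20 ug/ml and human TGF-beta at 3 ng/ml, a mix that yields IL-9-making T helper cells (Th9), and CD4 beads were used to purify the cells. The Cblb-/- cells, which lack CBL-B, a ubiquitin ligase that limits activation of T cells, made up libraries D, E and F (14503 cells). Wild-type cells made up libraries A, B and C (12755 cells). Each library is named in the table by a sequencing index and a genotype, and could not be tied to a numbered sample of the labels. The labels do not say which part of Cblb was deleted, and they give n = 3 per genotype without saying whether each library was a mouse, a pool or a culture. The p-values therefore measure the spread between these libraries, which may be technical.

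When an amino acid runs short, its tRNA stays uncharged and the kinase GCN2 phosphorylates the translation factor eIF2. Most translation then slows while the mRNA of ATF4 is translated more, and ATF4 with C/EBP partners raises genes that import, make and load amino acids. Growth signals through mTORC1 raise ATF4 as well, and T cells depend on amino acid uptake when they leave the resting state. Because much of the control acts on translation, the Atf4 mRNA and the mRNAs of its targets are separate readouts.

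The DNA element bound by ATF4 with a C/EBP partner is called the C/EBP-ATF response element. Its core, TGATGNAA, was searched for on both strands in RefSeq promoter windows (build GRCm38.p6, 250 bases before to 50 after each start site), which 30 of the 36 genes had. It stood in 11 of these 30 genes, 36.7%, and in 1219 of all 27025 genes with a window, 4.51%. The genes were picked as ATF4 targets, so the higher share is a description of the choice. Of the genes higher in Cblb-/- cells over all cells, with the test given below, 4 of 10 with a window had the core: Asns, Gars, Iars and Tars. Of those not called it was 5 of 18. The stretches around these 4 cores are shown because they belong to genes that differed between the genotypes. The other 4 stretches were chosen after the search, to show the same letters beside genes that were not called or were too low to be tested. All are written 5′ to 3′ on the strand of the gene, with the core, or its reverse complement, in capitals.
Asns: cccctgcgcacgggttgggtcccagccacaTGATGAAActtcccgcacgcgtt
Gars: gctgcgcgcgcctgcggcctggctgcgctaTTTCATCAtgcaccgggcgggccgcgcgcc
Iars: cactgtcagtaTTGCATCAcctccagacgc
Tars: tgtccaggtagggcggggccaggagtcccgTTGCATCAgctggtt
Trib3: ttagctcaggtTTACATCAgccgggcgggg
Chac1: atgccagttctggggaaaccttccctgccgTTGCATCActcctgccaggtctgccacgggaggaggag
Vldlr: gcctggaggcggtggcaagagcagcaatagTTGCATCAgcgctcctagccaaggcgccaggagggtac
Slc7a11: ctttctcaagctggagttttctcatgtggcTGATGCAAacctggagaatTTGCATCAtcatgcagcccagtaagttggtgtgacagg

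These stretches lie at chr6:7693210-7693262 on the minus strand (Asns), chr6:55037941-55038000 on the plus strand (Gars), chr13:49682126-49682155 on the plus strand (Iars) and chr15:11399659-11399703 on the minus strand (Tars). The others lie at chr2:152344028-152344057 on the minus strand (Trib3), chr2:119351019-119351086 on the plus strand (Chac1), chr19:27216790-27216857 on the plus strand (Vldlr) and chr3:50443623-50443709 on the minus strand (Slc7a11). The core of Asns began 23 bases before the start site and that of Tars 15 bases before it. Slc7a11 held the core on either strand of the same stretch. The other cores were in the windows of Slc1a4, Aars and Yars. The cyclic AMP element TGACGTCA was in 0 of 30 genes, against 2.03% of all genes. The E-box CACGTG, which MYC binds, was in 5 of 30 genes, 16.7%, against 8.09% of all genes. It shared no bases with a TGATGNAA match in them. It stood in 3 of the 10 genes called higher over all cells and in 2 of the 18 not called. A match shows letters in a window, not binding, and a window with no match says nothing of the factor.

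The levels below are in ppm: the depth-corrected counts of a gene summed over a library's cells, per 1000000 of the sum over all genes. Median depth was 35573 to 39628 raw transcript counts (UMIs) per cell in Cblb-/- libraries and 37550.5 to 38753 in wild-type libraries, and 76 cell barcodes occurred in more than 1 library (152 cells). The T cell genes Cd3e, Cd3d, Cd3g, Trac and Cd4 summed to 1092 to 1168 ppm in Cblb-/- and 1185 to 1236 ppm in wild-type libraries. Genes of other cell types were low. Of B cell genes, Cd79b was at 4.80 to 8.76 ppm in Cblb-/- libraries and 2.38 to 3.09 ppm in wild-type libraries, Cd79a was at 0.27 to 0.37 ppm and 0.35 to 0.47 ppm, and Ms4a1 was below 0.1 ppm everywhere. The CD8 list summed to 10.2 to 11.1 ppm and 5.68 to 7.20 ppm, nearly all Cd8b1. The platelet gene Pf4 was at 0.24 to 1.85 ppm in Cblb-/- libraries and listed at 0 in wild-type libraries. The mast cell and basophil list summed to 0.96 to 3.58 ppm and 0.98 to 4.47 ppm, the myeloid list to 1.29 to 1.58 ppm and 1.24 to 1.28 ppm, and the natural killer list to at most 0.23 ppm in any library. The part of these cells in the results was not tested. Cblb itself was at 18.4, 15.0 and 17.99 ppm in libraries D, E and F, against 32.6, 31.1 and 30.9 ppm in A, B and C. Tags outside the deleted part would still be counted.

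A pair of library features bears on the 36 genes. Wild-type library C was the lowest of all 6 libraries for 33 of them. Summed over the 36 genes the level was 5405, 5464 and 4873 ppm in D, E and F, against 4708, 4571 and 3922 ppm in A, B and C. Cells high in low-oxygen genes (summed Bnip3, Slc16a3, Pdk1, Ankrd37, Egln3 and Ndrg1 above 12) made up 22.2% and 20.2% of D and F but 3.41% of E, against 3.84%, 2.53% and 8.04% of A, B and C.

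Over all cells a minority of the amino acid genes were higher in Cblb-/- libraries, with the gene of asparagine synthetase showing the largest difference of those tested. Of the 36 genes 34 averaged 5 ppm or more and were tested, all except Slc7a11 and Vldlr. Of these 11 were higher and 0 lower at an adjusted p under 0.05 (limma on log2(ppm + 1), Benjamini-Hochberg over 8475 genes). Of all tested genes 11% were higher and 13.4% lower. The median log2 difference, Cblb-/- minus wild type, was 0.22 for the 34 genes and -0.01 for all genes, and 32 of the 34 were positive. The levels of the groups did not overlap for 19 of the 34 genes with Cblb-/- higher (19.7% of all genes) and for 1, Mars, with Cblb-/- lower (25.6% of all genes). Without library C the number called higher was 3, and without B it was also 3. It was 6 without D, and 12 without the cells high in low-oxygen genes. The sums over a library cannot by themselves tell more cells with a transcript from more transcripts per cell. Asns had a value of 1 or more in 89.8%, 84.1% and 76.3% of cells of D, E and F. In A, B and C it did so in 68.5%, 68.7% and 55.1% of cells. Psat1 and Sars had such a value in at least 99.3% of cells of every library, so their differences lay mostly in the level per cell.

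**Figure D1:**
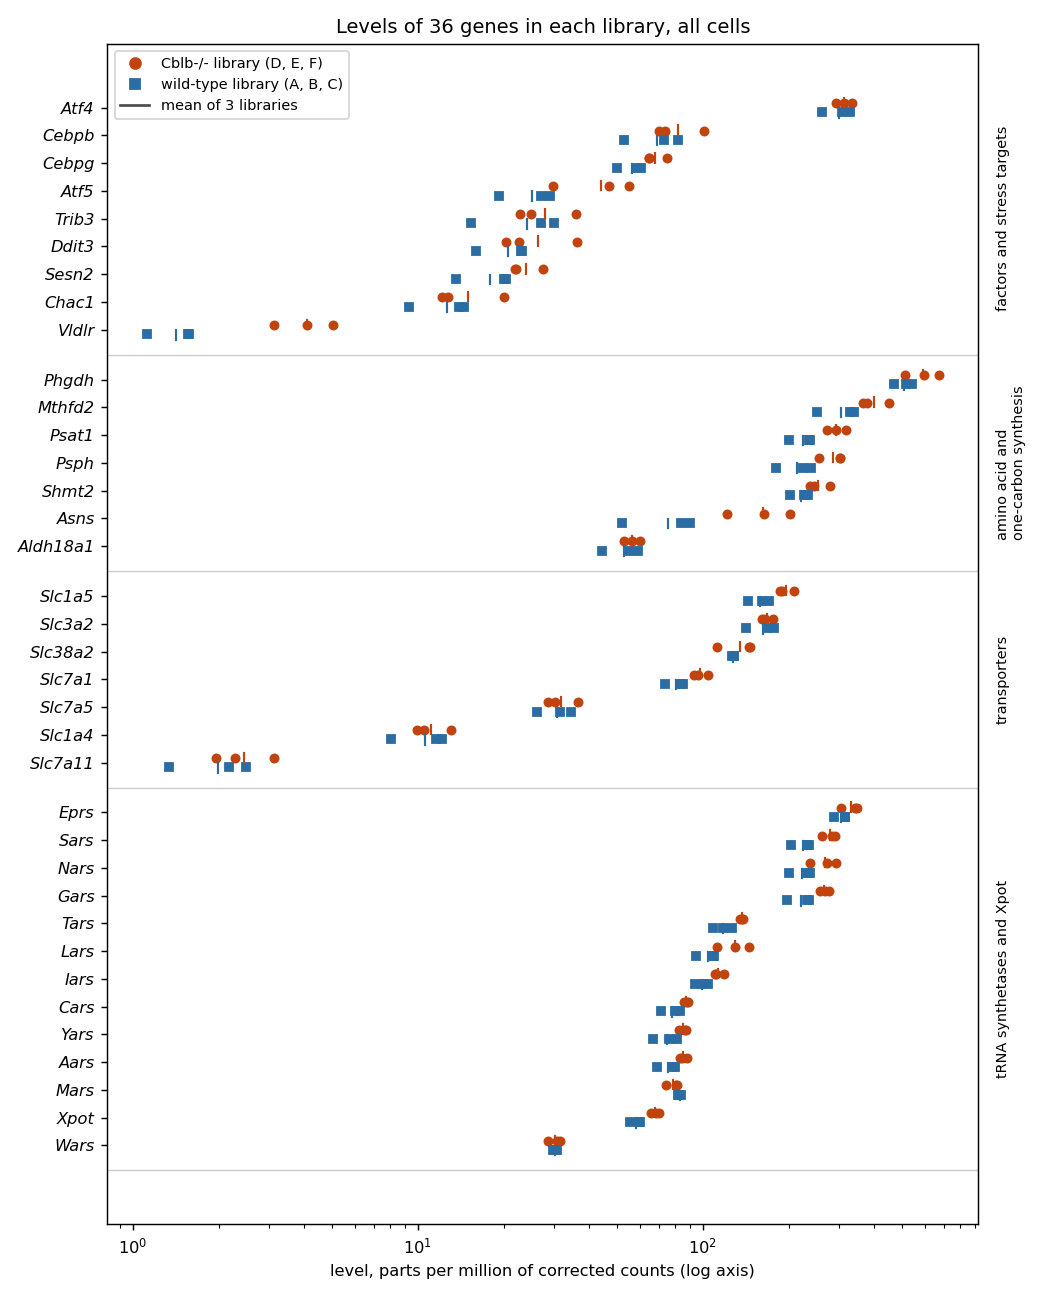
Level of each of the 36 genes in ppm of corrected counts (log axis), with Cblb-/- libraries D, E and F as circles, wild-type libraries A, B and C as squares, and a line at the mean of each 3. Asns shows the widest gap among the synthesis genes, at 122 to 202 ppm in Cblb-/- and 52.0 to 90.1 ppm in wild-type libraries, while Atf4, Slc7a5 and Slc3a2 overlap.

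Of the 7 synthesis genes 3 were higher and 4 did not pass. Asns (ENSMUSG00000029752, chromosome 6, 7675169 to 7693254, minus strand, mm10) codes for the enzyme that makes asparagine from aspartate and glutamine. It was at 202, 164 and 122 ppm in D, E and F, against 90.1, 84.0 and 52.0 ppm in A, B and C. Every Cblb-/- library lay above every wild-type library, with means of 163 ± 40.3 ppm and 75.4 ± 20.5 ppm (SD, n = 3 each). The mean was 2.16 times as high, and the log2 difference was 1.11 (SE 0.23, limma, adjusted p = 0.0141). Psat1 and Psph code for the middle and last enzymes of serine synthesis. Psat1 was at 317, 294 and 272 ppm in D, E and F, against 237, 238 and 201 ppm in A, B and C. Psph was at 302, 303 and 255 ppm in D, E and F, against 239.7, 225 and 179.8 ppm in A, B and C. Neither pair of groups overlapped, and the log2 differences were 0.39 for Psat1 (SE 0.08, limma, adjusted p = 0.0134) and 0.42 for Psph (SE 0.11, limma, adjusted p = 0.0303). Asns and Psat1 were past the threshold in 17 of 17 other settings run, with Asns between 0.87 and 1.30. Psph did not pass without library C, B, D or E, or with no minimum level.

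The other synthesis genes pointed the same way without passing over all cells. Mthfd2, a mitochondrial enzyme of the folate cycle, was at 376, 449.6 and 366 ppm in D, E and F, against 340.1, 328 and 251 ppm in A, B and C. These groups did not overlap, and the log2 difference was 0.38 (limma, adjusted p = 0.0577). Mthfd2 passed without the cells high in low-oxygen genes (0.40, limma, adjusted p = 0.0470) and with equal cluster shares in every library. Shmt2, which turns serine into glycine in mitochondria, was at 280.0, 246 and 238 ppm in D, E and F, against 234, 227 and 202 ppm in A, B and C, with no overlap (0.20, limma, adjusted p = 0.0902). Phgdh, the entry enzyme of serine synthesis, overlapped between the groups, at 510 to 672 ppm in Cblb-/- and 468 to 541 ppm in wild-type libraries. Phgdh passed without library F (0.32, limma, adjusted p = 0.0330). Aldh18a1, an early enzyme of proline synthesis, also overlapped, at 52.7 to 60.1 ppm and 44.3 to 59.1 ppm.

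Among the factors and stress targets Atf5 was called and Atf4 was not. Atf4 was at 294, 334 and 313 ppm in D, E and F, against 327, 308 and 263 ppm in A, B and C. The groups overlapped, and the difference in log2 was 0.07 (SE 0.08, limma, adjusted p = 0.564). Atf5 (ENSMUSG00000038539, chromosome 7, 44812256 to 44816658, minus strand, mm10), a related factor that is itself an ATF4 target, was at 55.2, 46.9 and 29.8 ppm in D, E and F, against 27.0, 29.0 and 19.3 ppm in A, B and C. Library F lay just above library B, and the log2 difference was 0.76 (SE 0.23, limma, adjusted p = 0.0448). The Atf5 call was kept in 6 of 17 other settings, and it was lost without library C (0.59, limma, adjusted p = 0.151), D (0.58, limma, adjusted p = 0.118), A, B or E and in 6 more settings, among them median-of-ratios scaling (limma, adjusted p = 0.0525).

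The stress genes Trib3, Ddit3 and Chac1 overlapped between the genotypes. Trib3, a pseudokinase that feeds back on ATF4, was at 25.0, 35.8 and 22.8 ppm in D, E and F, against 30.1, 27.0 and 15.3 ppm in A, B and C. Ddit3, the factor CHOP of prolonged stress, was at 20.4, 36.3 and 22.6 ppm in D, E and F, against 23.1, 23.0 and 16.0 ppm in A, B and C. Chac1, which degrades glutathione, was at 12.1, 20.0 and 12.8 ppm in D, E and F, against 14.0, 14.5 and 9.35 ppm in A, B and C. Library E was the highest of the 6 libraries in each of the 3 genes, and the log2 differences were 0.23 for Trib3 (limma, adjusted p = 0.534), 0.31 for Ddit3 (limma, adjusted p = 0.320) and 0.22 for Chac1 (limma, adjusted p = 0.471). Cebpb, a C/EBP partner of ATF4, overlapped as well, at 70.2 to 101 ppm and 52.7 to 81.7 ppm.

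Sesn2, Cebpg and Vldlr were higher in every Cblb-/- library. Sesn2, a leucine sensor that restrains mTORC1, was at 21.9, 27.5 and 22.2 ppm in D, E and F, against 20.3, 20.0 and 13.6 ppm in A, B and C (0.40, limma, adjusted p = 0.0927). Cebpg, a C/EBP family partner of ATF4, was at 64.6, 74.8 and 64.9 ppm in D, E and F, against 60.6, 58.7 and 50.1 ppm in A, B and C (0.27, limma, adjusted p = 0.0538). Neither difference passed. Vldlr, a lipoprotein receptor that ATF4 can raise, was at 3.13 to 5.03 ppm in Cblb-/- and 1.12 to 1.57 ppm in wild-type libraries, under the minimum of the test. With no minimum its log2 difference was 1.06 (SE 0.15, limma, adjusted p = 0.00901).

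Of the 7 transporter genes 2 were higher, 4 did not pass and 1 was too low to be tested. Slc1a5, the glutamine carrier ASCT2, was at 209, 189.7 and 187 ppm in D, E and F, against 170.1, 161 and 144 ppm in A, B and C. Slc7a1, which carries arginine and lysine, was at 92.8, 105 and 96.0 ppm in D, E and F, against 83.9, 84.9 and 73.6 ppm in A, B and C. Neither pair of groups overlapped, and the log2 differences were 0.30 for Slc1a5 (SE 0.07, limma, adjusted p = 0.0195) and 0.27 for Slc7a1 (SE 0.07, limma, adjusted p = 0.0250). Without library C they were 0.23 (limma, adjusted p = 0.0661) and 0.21 (limma, adjusted p = 0.0832). Neither passed without B, nor Slc1a5 without D, nor Slc7a1 without A or with median-of-ratios scaling.

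The large neutral amino acid carrier LAT1 and its partner did not differ beyond the spread. Slc7a5, which codes for LAT1, was at 30.2, 28.5 and 36.6 ppm in D, E and F, against 31.5, 34.4 and 26.1 ppm in A, B and C (0.05, SE 0.12, limma, adjusted p = 0.783). Slc3a2, which codes for its partner chain CD98, was at 165, 176 and 161 ppm in D, E and F, against 178, 168 and 142 ppm in A, B and C (0.05, SE 0.08, limma, adjusted p = 0.695). Both pairs of groups overlapped. Slc38a2, a carrier of small neutral amino acids, was at 112 to 147 ppm in Cblb-/- and 127 to 129 ppm in wild-type libraries. Slc38a2 passed without library D (0.19, limma, adjusted p = 0.0185). Slc1a4, which carries alanine, serine and cysteine, was at 9.97 to 13.0 ppm in Cblb-/- and 8.02 to 12.2 ppm in wild-type libraries. Slc7a11, the cystine carrier, was at 1.95 to 3.12 ppm and 1.34 to 2.49 ppm and was too low to be tested (0.21 with no minimum, limma, adjusted p = 0.492).

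Of the 13 genes of tRNA loading and export 5 were higher and 0 lower. Sars (ENSMUSG00000068739, chromosome 3, 108424865 to 108445209, minus strand, mm10), which loads serine, was at 284, 289.9 and 262 ppm in D, E and F, against 236, 232 and 204 ppm in A, B and C. Gars, for glycine, was at 267, 276 and 257 ppm in D, E and F, against 236, 232 and 197 ppm in A, B and C. The groups were apart in both, with log2 differences of 0.31 for Sars (SE 0.07, limma, adjusted p = 0.0141) and 0.27 for Gars (SE 0.07, limma, adjusted p = 0.0296). Sars passed in 17 of 17 other settings. Iars, for isoleucine, was at 118, 110.5 and 111 ppm in D, E and F, against 105, 100.5 and 93.7 ppm in A, B and C. Tars, for threonine, was at 139, 135 and 137 ppm in D, E and F, against 127, 118 and 108 ppm in A, B and C. Xpot, the export factor of tRNA, was at 70.4, 68.5 and 65.6 ppm in D, E and F, against 60.4, 59.5 and 55.6 ppm in A, B and C. These 3 did not overlap either, at 0.18 for Iars (limma, adjusted p = 0.0372), 0.22 for Tars (limma, adjusted p = 0.0299) and 0.22 for Xpot (limma, adjusted p = 0.0174). None of Gars, Iars, Tars and Xpot passed without library C, or without B. Gars, Iars and Tars did not pass without D either, nor Iars and Tars without F, nor Iars without A. Gars and Iars were also lost with median-of-ratios scaling, Gars with no minimum level and Iars in limma without a trend, so that Iars passed in 10 of 17 other settings.

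Of the other synthetases 6 were positive and did not pass, and 2 were at or below 0. Lars, for leucine, was at 146, 129.97 and 112 ppm in D, E and F, against 108, 109.5 and 94.7 ppm in A, B and C. Nars, for asparagine, was at 273, 294 and 236.8 ppm in D, E and F, against 232, 237.2 and 201 ppm in A, B and C. Lars did not overlap (0.30, limma, adjusted p = 0.0569), and in Nars library F lay just under library B (0.26, limma, adjusted p = 0.0710). Both passed without library F (limma, adjusted p = 0.0181 for Lars and 0.0263 for Nars). Lars also passed with equal cluster shares (limma, adjusted p = 0.0357). Aars, for alanine, was at 83.3, 87.9 and 84.3 ppm in D, E and F, against 79.9, 77.8 and 68.9 ppm in A, B and C. Yars, for tyrosine, was at 86.8, 87.0 and 82.2 ppm in D, E and F, against 81.2, 76.2 and 66.7 ppm in A, B and C. Neither overlapped, at 0.17 for Aars (limma, adjusted p = 0.0728) and 0.19 for Yars (limma, adjusted p = 0.0829). Cars, for cysteine, was at 86.0 to 88.9 ppm in Cblb-/- and 71.5 to 82.8 ppm in wild-type libraries, and Eprs, for glutamate and proline, was at 306 to 347 ppm and 287 to 315 ppm. Mars, for methionine, was at 74.3 to 81.0 ppm in Cblb-/- and 81.8 to 84.0 ppm in wild-type libraries (-0.08, limma, adjusted p = 0.247). Wars, for tryptophan, was at 28.5 to 31.5 ppm and 29.8 to 30.9 ppm.

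Genes around the pathway that are not among the 36 were read from lists. Of 17 tested other ATF4 targets 7 were higher and 0 lower, where 11% of all tested genes were higher and 13.4% lower. Their median log2 difference was 0.49. The largest were Cth, which makes cysteine from cystathionine (1.58, limma, adjusted p = 0.0157), Slc7a3, a further arginine carrier (1.48, limma, adjusted p = 0.0111), and Atf3, a stress factor (0.90, limma, adjusted p = 0.00775). Cth was at 92.3, 75.1 and 44.1 ppm in D, E and F, against 29.5, 27.4 and 12.8 ppm in A, B and C, in the same order of libraries as Asns. Among the 15 tested genes of the eIF2 kinases and their controls 0 passed in either direction, at a median of -0.05. The kinase gene Eif2ak3 was under the minimum level and was not tested. Eif2ak4, which codes for GCN2, had a log2 difference of 0.09 (limma, adjusted p = 0.413).

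The remaining lists held calls in either direction or none, where 11% of all tested genes were higher and 13.4% lower. Of 11 other cytosolic synthetases 0 passed, at a median of -0.02. Of 10 other amino acid transporters 2 were lower and 0 higher: Slc43a2 at -0.54 and Slc25a15 at -0.23. Of 18 mitochondrial synthetase genes 1 was higher, Fars2 at 0.17, and 2 were lower, Ears2 at -0.37 and Qrsl1 at -0.25. Of 12 other serine and folate-cycle genes 1 was higher and 3 were lower. Gcsh, of the glycine cleavage system, was lower at -0.41 (limma, adjusted p = 0.00125), Mat2a, which makes S-adenosylmethionine, was higher at 0.34, and the cytosolic enzyme Shmt1 was lower at -0.25. Of 22 genes of mTORC1 and its inputs, amino acid sensing among them, 1 was higher, Depdc5 at 0.29. In that list 2 were lower, Sesn1 at -0.33 and Lamtor1 at -0.24. No difference between these lists and the 36 genes was tested, and the lists were not refitted without library C. All lists were chosen with earlier results of these data known, so the contrast between them is a description.

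Within the clusters the authors had deposited, cluster 4 had the most of the 34 genes called between the genotypes, as in every other setting run. The test was repeated in each of the 6 clusters with at least 50 cells in every library. The number of the 34 genes higher in Cblb-/- cells was 18 in cluster 0 (9.06% of all tested genes), 13 in cluster 1 (9.22%), 5 in cluster 2 (8.39%), 2 in cluster 3 (4.54%), 23 in cluster 4 (5.33%) and 13 in cluster 5 (4.9%). In every one of these clusters 0 were lower, where 12.8%, 9.62%, 11.7%, 3.85%, 7.47% and 4.68% of all tested genes were lower in clusters 0 to 5. The median log2 differences of the 34 genes were 0.28, 0.24, 0.09, 0.13, 0.42 and 0.31 in clusters 0 to 5, and those of all tested genes lay between -0.03 and -0.01. Most clusters lost calls when a single library was left out. Without library C the numbers called higher were 5, 2, 2, 1, 17 and 3 in clusters 0 to 5, and 30 in sum in place of 74, while 283, 382, 398, 131, 245 and 177 of all genes were called higher. Without B they were 8, 6, 5, 2, 25 and 5, and without D 10, 6, 3, 3, 22 and 6. Without A cluster 0 had 10 calls and cluster 3 had 1, and without E cluster 5 had 8. With only cells within 20% of the median depth cluster 5 had 4 calls. Without the cells high in low-oxygen genes, cluster 4 had 24 calls.

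**Figure D2:**
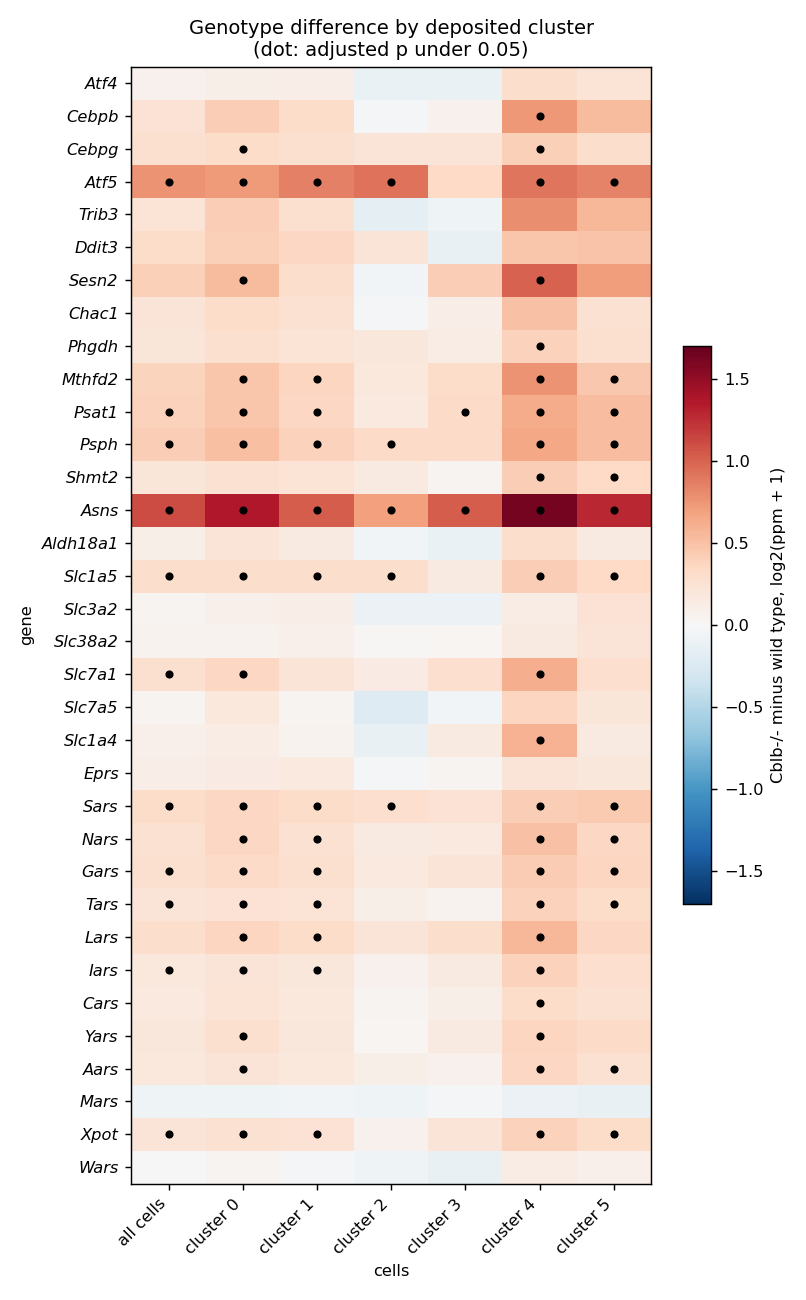
Difference Cblb-/- minus wild type in log2(ppm + 1) for the 34 tested genes (rows, by role) over all cells and within each deposited cluster (columns), with a dot where the adjusted p was under 0.05. Asns is dotted in every column, cluster 4 holds 23 dots, and cluster 3 holds 2.

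Asns was the only gene of the 34 called in all 6 clusters, with log2 differences of 1.36, 1.03, 0.70, 1.03, 1.63 and 1.29 in clusters 0 to 5. In cluster 4 Asns was at 179, 169.5 and 125 ppm in D, E and F, against 53.6, 59.6 and 38.6 ppm in A, B and C. In cluster 2 it was at 245, 216 and 164 ppm in D, E and F, against 140.7, 149.9 and 95.9 ppm in A, B and C. Every Cblb-/- library was above every wild-type library in both clusters, and in both genotypes the levels were higher in cluster 2. Atf5, Psph, Sars and Slc1a5 were among the genes called in 5 clusters, and 11 of the 34 were called in none. The Asns call in cluster 2 did not pass without library C. Sesn2 was called in clusters 0 and 4, in cluster 0 not without A, C or D, at 1.01 in cluster 4 (limma, adjusted p = 0.000351).

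The difference between a cluster and the other cells of the same library was then compared between the genotypes. In cluster 4 it was more positive in Cblb-/- libraries for 17 of 34 genes and less so for 0, where 0.971% of all genes were called higher and 1.97% lower. Sesn2 had the largest value, 0.63 (SE 0.11, limma, adjusted p = 0.00294), followed by Trib3 at 0.57, Slc1a4 at 0.54, Asns at 0.53, Cebpb at 0.50, Mthfd2 at 0.40, Slc7a5 at 0.33 and Atf4 at 0.23. Sesn2 was at 25.1, 32.7 and 26.1 ppm in cluster 4 of D, E and F, against 13.1, 15.8 and 11.4 ppm in A, B and C. Cluster 4 held 195 to 353 cells per Cblb-/- library and 112 to 136 per wild-type library, with median depths of 41693 and 41732 UMIs. The number called was 8 without library C, 10 without A, 11 without D or E, and 6 when only cells within 20% of the median depth were used. Asns, Sesn2, Mthfd2 and Slc7a1 passed in 9 of 9 other settings, and Trib3 and Atf4 in 8. Slc1a4 passed in 4 of them, Cebpb and Slc7a5 in 3, and Gars and Iars in 2. None of these 5 passed without library C, without E or near the median depth.

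In cluster 2 the same comparison gave 10 genes with a lower value in Cblb-/- libraries and 0 with a higher one, where 3.78% of all genes were called lower and 2.61% higher. Sesn2 was at -0.44 (SE 0.07, limma, adjusted p = 0.00191), Asns at -0.40 (SE 0.06, limma, adjusted p = 0.000652), Trib3 at -0.34, Slc7a5 at -0.25, Cebpb at -0.24 and Atf4 at -0.18. Psat1, Mthfd2, Eprs and Yars were also called. Without library C, or without D, 7 genes were called. Sesn2, Asns, Cebpb and Psat1 passed in 9 of 9 other settings, Trib3 in 8, Slc7a5 and Mthfd2 in 7, Atf4 and Eprs in 6, and Yars in 2. Trib3 in cluster 2 was at 34.4, 50.6 and 33.9 ppm in D, E and F, against 53.4, 48.8 and 31.0 ppm in A, B and C, with overlap. Cells of cluster 2 had median depths of 39992 UMIs in Cblb-/- and 43200 UMIs in wild-type cells, and with cells near the median depth 4 genes were called. Cells high in low-oxygen genes made up 28.6%, 6.67% and 24.1% of cluster 2 in D, E and F, against 5.24%, 3.61% and 8.65% in A, B and C, and without them 9 genes were called. In the other clusters the calls were Asns in cluster 0 (0.26, with 1.48% of all genes called higher and 2.58% lower), Asns in cluster 1 (-0.20, with 1.82% higher and 1.1% lower) and Cebpb in cluster 5 (0.31, with 0.106% higher and 0.0946% lower). The Asns calls passed in 4 of 9 other settings in cluster 0 and in 5 of 9 in cluster 1, and both were lost without library C, without A or without D. The Cebpb call passed in 2 of 9, and near the median depth its value was 0.15 (limma, adjusted p = 0.761). In cluster 3, 0 of 34 genes passed in limma, where 0.0356% and 0.0237% of all genes were called higher and lower. An unadjusted p under 0.05 was reached by 8 of the 34, and by 367 higher and 356 lower genes of all 8436. Of the 34 genes 31 were negative and 3 positive, where 48.7% of all genes were positive.

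**Figure D3:**
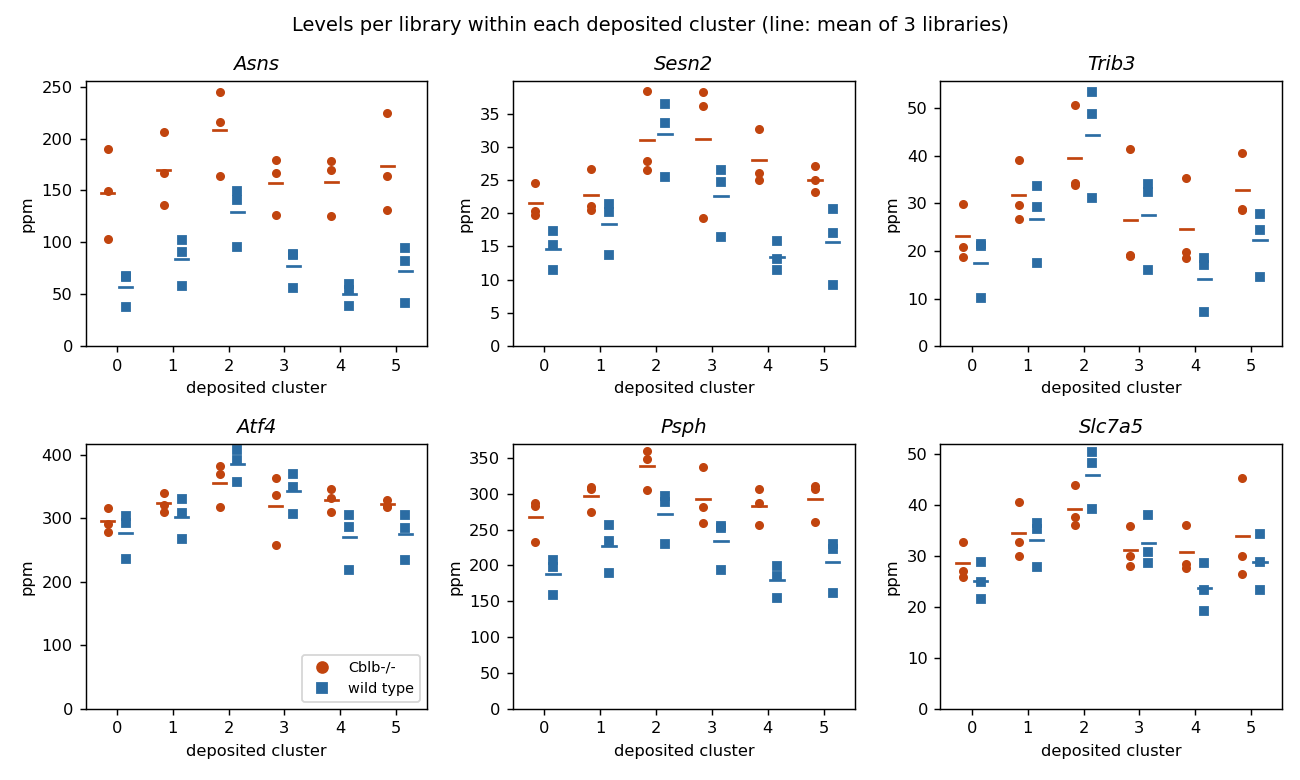
Levels of 6 genes in ppm per library within deposited clusters 0 to 5, with Cblb-/- libraries as circles left of wild-type libraries as squares and lines at the means of 3 libraries. Asns is apart between the genotypes in every cluster, and Sesn2, at 25.1 to 32.7 ppm against 11.4 to 15.8 ppm, is apart in cluster 4 and overlaps in cluster 2.

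The clusters also differed in level, which is a description since the authors drew them on the same values. Cluster 2, in which every cell was Il9-high as defined below, with a value of 10 or more (2055 Cblb-/- and 661 wild-type cells), had the highest mean level of the 6 clusters for 29 of the 36 genes in Cblb-/- and 33 in wild-type libraries. The lowest cluster was 0 for 25 genes in Cblb-/- libraries and 4 for 30 genes in wild-type libraries. For Asns the mean of cluster 2 was 208 ± 41.1 ppm in Cblb-/- and 129 ± 28.9 ppm in wild-type libraries (SD, n = 3 each). The lowest means of Asns were 148 ± 43.1 ppm in cluster 0 of Cblb-/- and 50.6 ± 10.8 ppm in cluster 4 of wild-type libraries. The ratio of the highest to the lowest cluster was thus 1.41 in Cblb-/- and 2.55 in wild type for Asns, and 1.21 and 1.43 for Atf4. In Cblb-/- libraries the spread between libraries was as wide as the steps between neighbouring clusters for Asns.

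Cells that made Il9 had more of these transcripts in both genotypes. Within each library, cells whose Il9 value was 10 or more (Il9-high) were set against cells whose value was below 1 (Il9-zero), and none of the 36 genes was used to choose them. Of the 34 genes 31 were higher in Il9-high cells and 0 lower (limma with the library as a block), where 22.9% of 8520 genes were higher and 32.5% lower. The median log2 difference was 0.22 for the 34 genes and -0.02 for all genes. For 30 of the 34 the difference was positive in all 6 libraries, as it was for 20.1% of all genes. The number of calls was again 31 without cluster 2, without the cells high in low-oxygen genes, with cells near the median depth, and with an Il9 value of 30 or more. Il9-high cells numbered 990, 1083 and 1426 in D, E and F and 596, 448 and 647 in A, B and C.

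Trib3 had the largest difference in this comparison. It was at 33.5, 48.1 and 32.3 ppm in Il9-high cells of D, E and F, against 21.7, 33.2 and 21.7 ppm in their Il9-zero cells. In A, B and C it was at 47.1, 44.4 and 27.5 ppm in Il9-high cells, against 26.2, 24.1 and 12.9 ppm in Il9-zero cells. It was higher in Il9-high cells of 6 of 6 libraries, by 0.73 in log2 (SE 0.06, limma, adjusted p = 1.69e-06). Cebpb followed at 0.64, Asns at 0.57, Ddit3 at 0.56, Slc7a5 at 0.53, Sesn2 at 0.52, Chac1 at 0.43, Slc3a2 at 0.32 and Atf4 at 0.26. Thus Slc7a5, Slc3a2, Ddit3 and Chac1, which were not called between the genotypes, were higher in Il9-high cells. Atf4 was at 319, 369 and 354 ppm in Il9-high cells of D, E and F, against 293, 332 and 309 ppm in their Il9-zero cells (limma over all 6 libraries, adjusted p = 7.55e-05). The genes not called were Slc1a4 at 0.12, Slc1a5 at 0.02 and Mars at -0.05.

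**Figure D4:**
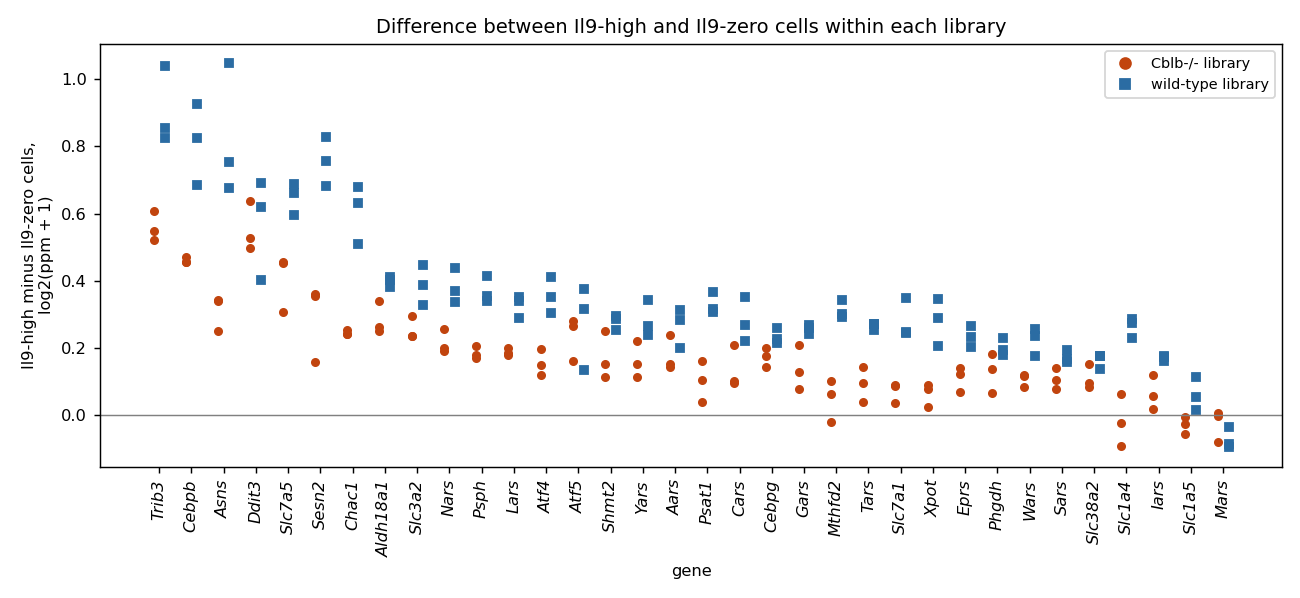
Difference between Il9-high and Il9-zero cells in log2(ppm + 1) within each library for the 34 tested genes, ordered by their mean, with Cblb-/- libraries as circles left of wild-type libraries as squares. Trib3 is highest, at 0.52 to 0.61 in Cblb-/- and 0.83 to 1.04 in wild-type libraries, and for Asns the 3 circles, 0.25 to 0.34, lie under the 3 squares, 0.68 to 1.05.

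The difference between Il9-high and Il9-zero cells was smaller in Cblb-/- libraries for most of these genes. In the test of that difference 21 of 34 genes were lower and 0 higher in Cblb-/- libraries, where 6.41% of all genes were lower and 4.38% higher. For 28 of the 34 every Cblb-/- value lay below every wild-type value, as for 19% of all genes, and for 0 of the 34 every one lay above, against 12% of all genes. Without library C the number called lower was 15. For Asns the difference was 0.25, 0.34 and 0.34 in D, E and F, against 0.75, 0.68 and 1.05 in A, B and C, a gap of -0.51 (SE 0.07, limma, adjusted p = 0.000252). Its levels were 236, 203 and 154 ppm in Il9-high and 198, 160.0 and 121 ppm in Il9-zero cells of D, E and F. In A, B and C they were 134, 123 and 88.3 ppm in Il9-high and 79.4, 76.6 and 42.2 ppm in Il9-zero cells. The genotypes were thus farther apart in Il9-zero than in Il9-high cells.

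Sesn2 had a gap of -0.46, Chac1 of -0.36, Cebpb and Trib3 of -0.35 each, Slc7a5 of -0.24, Atf4 of -0.20 and Slc3a2 of -0.13. Sesn2 was at 26.7, 34.5 and 26.2 ppm in Il9-high cells of D, E and F, against 32.0, 30.1 and 21.3 ppm in those of A, B and C, with overlap. In Il9-zero cells it was at 20.6, 26.8 and 23.4 ppm in D, E and F, against 17.6, 18.4 and 12.2 ppm in A, B and C, with none. Of these, Slc3a2 passed in 6 of 11 other settings. Ddit3 had no gap that passed, at -0.02 (limma, adjusted p = 0.906), with differences of 0.50 to 0.64 in Cblb-/- and 0.40 to 0.69 in wild-type libraries.

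Depth and cluster moved with the choice of cells. Il9-high cells had median depths of 40422.5, 36934 and 40260 UMIs in D, E and F, against 42387, 36930 and 44185 UMIs in their Il9-zero cells. In A, B and C they had 42185, 43415 and 43494 UMIs, against 37997.5, 39859 and 38252 UMIs. With cells within 20% of the median depth 7 genes were lower: among them Asns at -0.36 (limma, adjusted p = 0.00603), Sesn2 at -0.35, Cebpb at -0.40 and Atf4 at -0.14 passed, while Trib3 at -0.23 (limma, adjusted p = 0.0966) and Chac1 at -0.32 (limma, adjusted p = 0.0928) did not. Cluster 2 held 52.6% to 62.1% of Il9-high cells in Cblb-/- and 37.1% to 41.1% in wild-type libraries, and without it 23 genes were lower. Without the cells high in low-oxygen genes 19 were. In Il9-high cells Il9 itself was at 3067, 2263 and 2820 ppm in D, E and F. In A, B and C it was at 1636, 1411 and 1562 ppm, so these cells were not matched for Il9 between the genotypes. With an Il9 value of 30 or more 20 genes were lower. The part of the Il9 level in the gap was not tested.

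Across single cells of a library most of these genes varied together, and the 5 highest pairs each held a synthesis gene. Pearson's r of log2(value + 1) over the 3423 to 5666 cells of each library was averaged over the 6 libraries. The median over 630 pairs was 0.249, 402 pairs had a mean of at least 0.2, and 3 pairs, all with Mars, were below 0. The highest was 0.605 for Asns and Psph, with 0.521 to 0.659 over libraries, followed by Psph and Nars at 0.601, Phgdh and Psph at 0.596, Psph and Mthfd2 at 0.588, and Atf4 and Mthfd2 at 0.585. Points are cells that share a library, and r of each gene with the log2 raw depth of the cell was 0.025 to 0.23 even after the authors' correction. These values are descriptions.

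**Figure D5:**
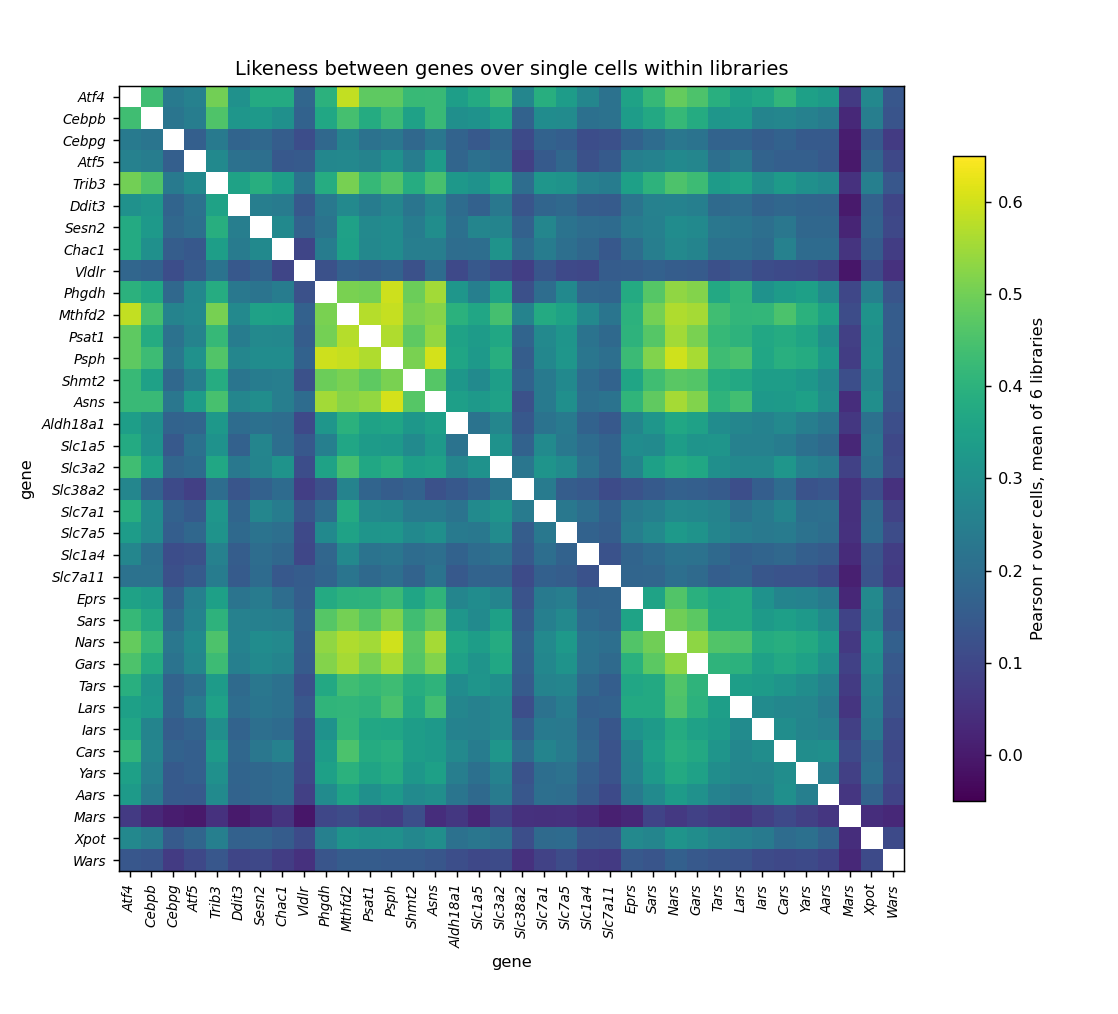
Pearson's r between each pair of the 36 genes over cells, as the mean of 6 libraries (colour), in the order of factors and stress targets, synthesis, transporters and tRNA genes on both axes. The synthesis genes with Nars, Sars and Gars form the brightest block, up to 0.605, while Mars, Wars, Slc38a2 and Vldlr stay dark against most others.

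Out of 8474 other genes averaging 5 ppm or more, the 20 most like Asns over cells held 12 of the 36 genes. The 20 most like Atf4 held 14 and the 20 most like Trib3 held 12. For Asns the nearest were Psph at 0.605, Eif4ebp1 at 0.587, Nars at 0.556 and Phgdh at 0.553. For Atf4 they were Mthfd2 at 0.585, Eif4ebp1 at 0.540, Eif2s2 at 0.527 and Trib3 at 0.50. Eif4ebp1, which restrains cap-dependent translation, and Pck2 and Cth were in the list of other ATF4 targets, and Eif2s2 codes for a subunit of eIF2. The share of a gene's corrected counts held by its top 10% of cells was largest in genes at low levels, in more than one role. As a mean of 6 libraries it was 100% for Slc7a11, 94.7% for Vldlr, 52.4% for Chac1 and 49.3% for Slc1a4. It was 46.8% for Trib3 and 45.5% for Sesn2, against 36.8% for Asns and 21.4% for Atf4. Slc7a11 had a value of 1 or more in 4.37% to 9.80% of a library's cells, and Vldlr in 3.49% to 13.8%. With so few such cells, the top 10% must hold all or nearly all counts of these genes.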

How the data were processed

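Single-cell RNA was sequenced with 10x 3' chemistry. Tools named in the submitters' processing notes are Cell Ranger 3.0.2 and Seurat 3.0.0, with build mm10 and no roles given. The deposited score of a gene in a cell is its count after the authors' sctransform correction, per the file headers, and these sum to 36012 to 39754 in each cell whatever its raw depth. The raw UMI count of each cell and the percent of mitochondrial UMIs were deposited with them, per the file headers, and the lowest deposited raw count was 15006. Libraries and genotypes are those of the table's own columns, and cluster numbers are the authors'. No raw count per gene was used here, so no count model, thinning or doublet caller was run.

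Corrected values were summed per library (or cluster, or Il9 class) and scaled to 1000000 (ppm). limma 3.58.1 (R 4.3.3) with a trended variance was fitted across all genes averaging at least 5 ppm on log2(ppm + 1), two-sided, with Benjamini-Hochberg adjustment over all of them at 0.05. Differences on this scale understate changes of low genes. Cluster against other cells, and Il9-high (10 or more) against Il9-zero (below 1), were fitted within libraries, and their difference between the genotypes was tested as an interaction. All comparisons share the same 6 libraries. The fit was tested on simulated data. Python 3.11.15, pandas 2.3.3, scipy 1.17.1 and matplotlib 3.10.9 were used for the rest.

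The genes, lists and tests were chosen with earlier results of these data known. Values in every library are given for genes called over all cells or in at least 2 clusters and for Atf4, Slc7a5, Slc3a2, Chac1, Trib3 and Ddit3, and the rest by range. Other lists give counts and at most 3 called genes. Alternatives were other scalings, pseudocounts and minimums, limma without a trend, means of logs, equal cluster shares, cells within 20% of the median depth, cells not high in low-oxygen genes, an Il9 value of 30, and leaving out each library. Coordinates of genes are those of mm10, and promoter windows are RefSeq's. One marker gene is not reported here.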

Additional observations from a re-analysis of the deposited data

Results flagged for a closer look

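The difference between the genotypes was not the same in every cluster, by a test of the interaction (limma, adjusted over all genes). In cluster 4 against the other cells, 17 of the 34 genes had a larger difference, Cblb-/- minus wild type. Of all genes 0.971% were called higher there and 1.97% lower. With cells near the median depth 6 of the 34 were called. The values on the log2(ppm + 1) scale were 0.63 for Sesn2, 0.57 for Trib3, 0.54 for Slc1a4, 0.53 for Asns, 0.50 for Cebpb, 0.40 for Mthfd2, 0.33 for Slc7a5 and 0.23 for Atf4. In cluster 2 the difference was lower for 10 genes, where 3.78% of all genes were called lower and 2.61% higher. The values were -0.44 for Sesn2, -0.40 for Asns, -0.34 for Trib3, -0.25 for Slc7a5, -0.24 for Cebpb and -0.18 for Atf4. With cells near the median depth 4 genes were called. Within cluster 2 Asns had means of 208 ppm in Cblb-/- and 129 ppm in wild-type libraries. Atf4 had means of 356 and 386 ppm there, and its groups overlapped. In cluster 0 the difference was larger for 1 gene, Asns, at 0.26, where 1.48% of all genes were called higher. In cluster 1 it was smaller for 1 gene, Asns, at -0.20, where 1.1% of all genes were called lower. In cluster 5 it was larger for 1 gene, Cebpb, at 0.31, where 0.106% of all genes were called higher. These last 3 calls were fragile: Asns passed in 4 of 9 other settings in cluster 0 and in 5 of 9 in cluster 1, and Cebpb passed in 2 of 9 and was at 0.15 near the median depth (limma, adjusted p = 0.761). In cluster 4 Slc1a4 passed in 4 of 9, and Cebpb and Slc7a5 in 3.

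The difference between Il9-high and Il9-zero cells was smaller in Cblb-/- than in wild-type libraries for 21 of the 34 genes, by the same kind of test. Of all genes 6.41% were called lower and 4.38% higher. The values were -0.51 for Asns, -0.46 for Sesn2, -0.36 for Chac1, -0.35 for Cebpb, -0.35 for Trib3, -0.24 for Slc7a5, -0.20 for Atf4 and -0.13 for Slc3a2. The last passed in 6 of 11 other settings. With cells near the median depth 7 of the 34 genes were called. There Chac1, Trib3, Slc7a5 and Slc3a2 did not pass (limma, adjusted p = 0.0928, 0.0966, 0.0625 and 0.127).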

How the results depend on the processing

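No called gene among the 36 changed direction under the settings run, but the balance of higher and lower calls turned in some. Over all cells the 11 genes called higher became 7 with median-of-ratios scaling and 3 to 12 without 1 library, while 0 were lower in each. The 929 genes called higher among all genes became 1433 with no minimum, 547 with a minimum of 20 ppm and 396 to 1750 without 1 library, and the 1139 called lower became 381 to 1396. More genes were thus higher than lower with no minimum (1433 and 1293) and without E (1750 and 1396), A (459 and 408) or C (396 and 381). The 74 calls within clusters became 30 to 76 without 1 library. For clusters against other cells, the 19 higher became 8 with cells near the median depth and 8 to 19 without 1 library, and the 11 lower became 5 and 7 to 16, with 13 higher and 16 lower without E. Of the Il9 comparison, 0 to 1 genes were lower without 1 library, the 1 being Mars without D. The 21 genes with a smaller Il9 difference became 7 with cells near the median depth. The cause was not tested. Leaving out cells high in low-oxygen genes in the cluster and Il9 comparisons, and leaving out cluster 2 in the Il9 comparison, was chosen after seeing the data. No paired analysis was possible because the table's libraries carry no replicate number. Slc7a11 and Vldlr were left out of the main test because they averaged under 5 ppm.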
